A study of Nicotiana tabacum with 12 samples.

Results

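In roots of tobacco (Nicotiana tabacum), 77 of the 25273 gene models of the deposited table met the rule set out below. It asks for a higher level in TWTR than in WTR and a lower level in TCR than in CR, within further limits. TCR, CR, TWTR and WTR are the 4 codes that the sample titles give, with 3 libraries each. In every member of the set the letter T goes with a higher level on the WTR stem and a lower level on the CR stem. Many models outside the set share these directions without meeting the other limits. The level used was log2(FPKM + 1), where FPKM is fragments scaled to transcript length and to all mapped fragments of a library. A member had a mean over the 12 libraries of at least 5 and under 1000 FPKM. Its TWTR mean lay at least 0.6 above WTR, its TCR mean at least 0.6 below CR and its CR mean at least 0.6 above WTR, in log2 units. Every TWTR library was above every WTR library, and every TCR library below every CR library. In addition TCR minus WTR was under 1 and CR minus TWTR lay between -1 and 1. All 4 groups entered into this choice, so the members were chosen by the values reported below, which are given as a description with no test.

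Every sample carries the same text, which names an NtLHT1 mutant whose roots were collected after 15 days of hydroponic culture in a medium called LN. The series title speaks of low nitrogen tolerance. The codes are not spelled out, so no genotype, treatment or nitrogen supply was given to any of the 4 groups, and the mutant text stands on the WTR and TWTR samples too. Nothing says that the libraries of a group came from separate plants, so their spread may be technical.

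LHT1 is known from Arabidopsis as a carrier that brings amino acids across the plasma membrane, and in roots it takes up amino acids from the medium. When nitrogen is scarce, roots of many plants change the transcripts of transporters and of the enzymes that bring ammonium into amino acids. Tobacco is an allotetraploid, so many of its genes exist as near-identical copies from its parent species. None of the 25273 identifiers was found in the RefSeq gene table (0 matches), and the files pair no identifier with a gene name. The members are therefore named by identifier only, with no role and no sequence, NtLHT1 was not analysed here, and the labelled tissue could not be set against root marker genes. In whole roots, fewer cells of a type and less RNA per cell cannot be told apart.

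FPKM sums were alike, from 1099061 to 1154691 per library. The unit does not carry the number of fragments, and the depth in fragments is not known. By the steps between low values, CR replicate 2 was sequenced about 1.8 times as deeply as CR replicate 1. The remaining 10 libraries came to 0.911 to 1.15 on the same scale.

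The median member stood at 8.12, 8.86 and 9.44 FPKM in the TCR libraries, against 19.22, 17.38 and 15.95 FPKM in the CR libraries. It stood at 12.42, 14.26 and 13.5 FPKM in the TWTR libraries, against 6.3, 5.77 and 6.69 FPKM in the WTR libraries. These medians parted the 4 groups with no overlap, and from the highest to the lowest the order was CR, TWTR, TCR and WTR. The rule asks for TWTR above WTR, TCR below CR and CR above WTR, so it sets much of this order. The members together held 0.222% ± 0.00238 of the FPKM sum in TCR and 0.446% ± 0.0464 in CR, and 0.309% ± 0.0204 in TWTR and 0.157% ± 0.00991 in WTR (SD, n = 3 each).

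**Figure D1:**
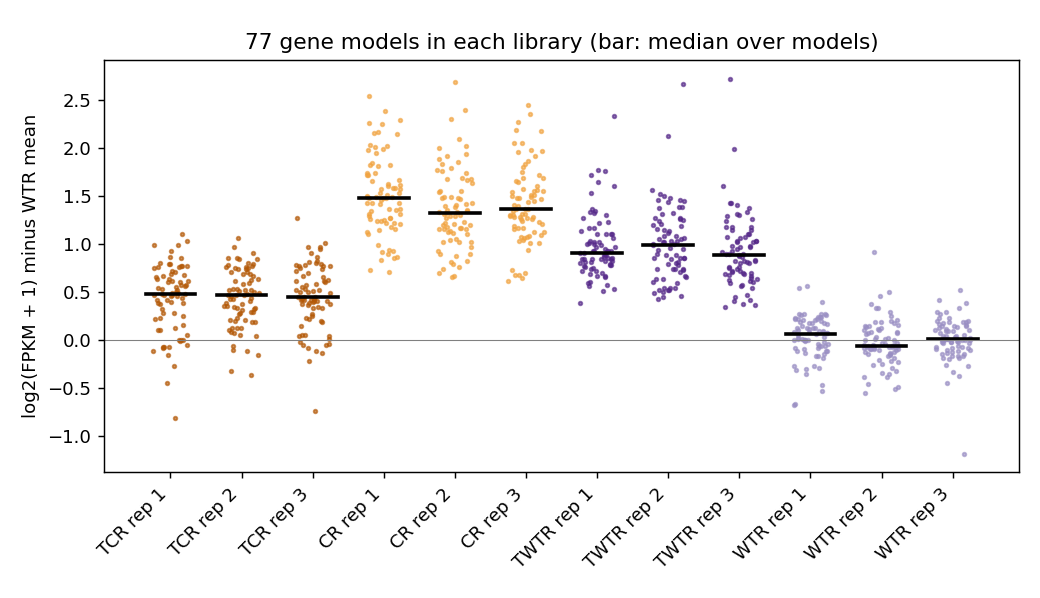
Each point is 1 of the 77 members in 1 of the 12 libraries, on the y axis as log2(FPKM + 1) minus the member's own WTR mean, and the bar is the median over members. The medians are 0.44 to 0.48 in TCR, 1.33 to 1.48 in CR, 0.89 to 0.99 in TWTR and -0.06 to 0.06 in WTR.

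Within CR, replicate 1 was the highest of the 3 libraries in 40 members. Replicate 2, the deepest by the steps between low values, was the lowest in 41. The part of depth in this order was not tested, and the order was not set against that of all models. Without CR replicate 2 the rule chose 79 models, 68 of them among the 77.

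The differences were of similar size on both stems, with the larger one on the WTR stem in 36 members. The rule asks for at least 0.6 in each of them, so nothing is read from this likeness. TWTR minus WTR had a median of 0.89 over the members (from 0.60 to 2.58) and 0.04 over the 19929 models tested, whose mean reached 1 FPKM and which include all 77 members. TCR minus CR had a median of -0.91 over the members (from -2.38 to -0.61) and -0.01 over all models tested. CR minus WTR had a median of 1.40 over the members (from 0.70 to 2.56) and 0.04 over all models tested. In mean FPKM, TWTR was at least double WTR in 35 members, TCR was at most 0.5 times CR in 35, and CR was at least double WTR in 71.

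Limma's linear model over all 12 libraries, with Benjamini-Hochberg adjustment over the 19929 models, called 76 members higher in TWTR than in WTR, as it did 20.4% of all models tested. It called 75 members lower in TCR than in CR, as it did 22.1% of all models tested. All 77 were called higher in CR than in WTR (23.5% of all models tested), and all 77 had a lower interaction, which is TCR minus CR less TWTR minus WTR (17.8% of all models tested). The rule chose the members by these values, so nothing is read from these counts. Nitab4.5_0000882g0040 did not pass in TWTR minus WTR (log2 difference 0.68, SE 0.284). Nitab4.5_0001703g0040 (-0.99, SE 0.462) and Nitab4.5_0003656g0060 (-0.68, SE 0.266) did not pass in TCR minus CR. The first and last of these were picked out after their values were seen.

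**Figure D2:**
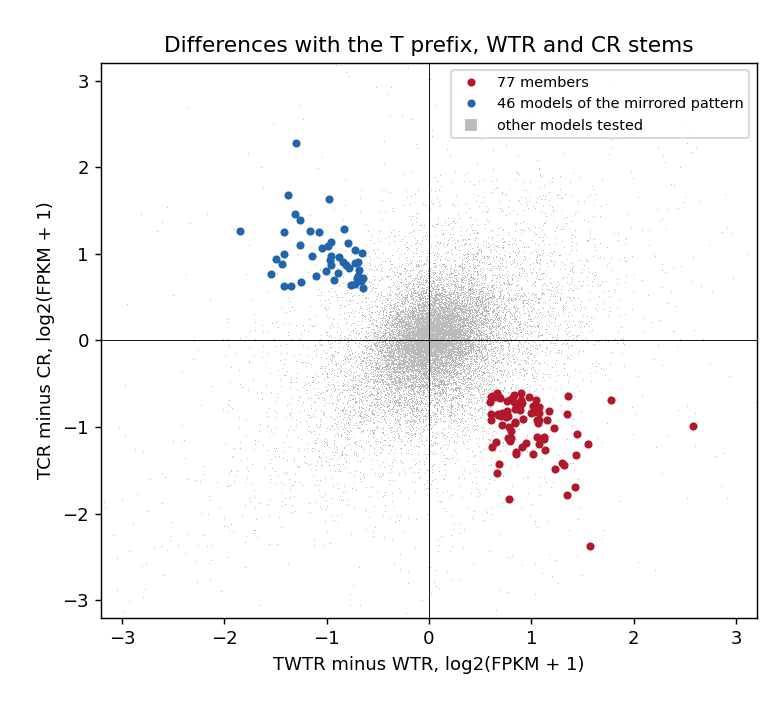
TWTR minus WTR on the x axis and TCR minus CR on the y axis, both as log2(FPKM + 1) differences, for the 77 members (red), the 46 models of the mirrored pattern (blue) and the other models tested (grey), with 53 models outside the plotted range. The members lie in the lower right by the rule that chose them, and the mirrored models in the upper left.

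The 2 most abundant members showed the pattern at high level. Nitab4.5_0000761g0110 was at 523.73, 492.02 and 468.31 FPKM in TCR, against 1437.01, 876.04 and 978.36 FPKM in CR. It was at 562.42, 664.46 and 503.66 FPKM in TWTR, against 291.52, 227.88 and 311.66 FPKM in WTR. TCR and TWTR overlapped here, at a level between the other 2 groups.

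Nitab4.5_0001858g0030 was at 270.69, 246.68 and 228.53 FPKM in TCR, against 629.17, 530.93 and 550.45 FPKM in CR. It was at 401.33, 360.82 and 401.13 FPKM in TWTR, against 133.13, 121.82 and 140.46 FPKM in WTR. All 4 groups stood apart. It was also among the 2 members that kept most of a gap between TCR and WTR, with a TCR minus WTR of 0.91.

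The other of that pair was Nitab4.5_0003620g0020. It averaged 59.1 ± 4.47 FPKM in TCR and 112.3 ± 2.07 FPKM in CR, and 70.1 ± 4.08 FPKM in TWTR and 30.9 ± 0.170 FPKM in WTR (SD, n = 3 each). Its TCR minus WTR was also 0.91 and its TCR minus TWTR -0.24. The T groups of both stems thus lay nearer to each other than to CR above or WTR below them. They did not overlap, as the highest TCR library was at 62.17 FPKM and the lowest TWTR library at 65.91 FPKM.

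**Figure D3:**
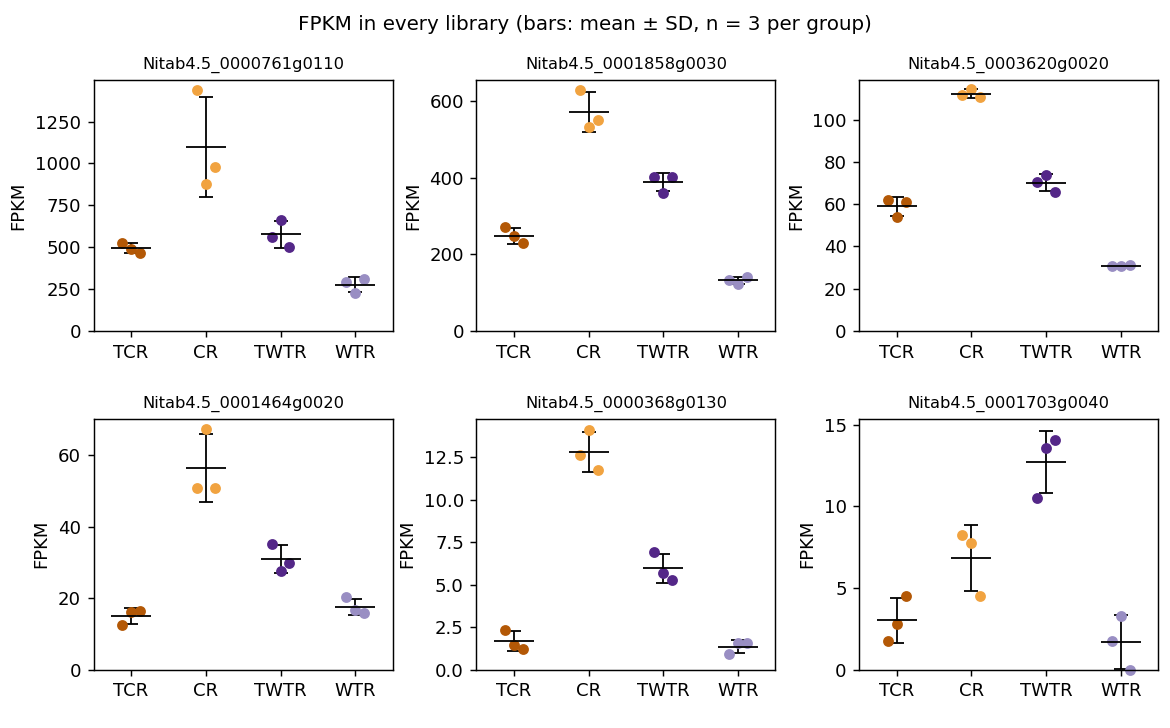
FPKM of 6 members in each library, with groups on the x axis and the bar and whiskers giving mean ± SD (n = 3). CR is the highest group in the first 5 panels, and TWTR is the highest in the last, Nitab4.5_0001703g0040, whose level is under 15 FPKM in every library.

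Nitab4.5_0000368g0130 had the most negative TCR minus CR, the largest CR minus WTR and the most negative interaction of all members. It was at 2.36, 1.48 and 1.25 FPKM in TCR, against 12.63, 14.11 and 11.75 FPKM in CR. It was at 6.94, 5.72 and 5.3 FPKM in TWTR, against 0.91, 1.58 and 1.59 FPKM in WTR. TCR and WTR libraries overlapped at the low end, and every TWTR library lay between them and CR. The log2 differences were -2.38 for TCR minus CR, 1.57 for TWTR minus WTR and 2.56 for CR minus WTR. These sizes and ranks depended on the pseudocount. With 5 in place of 1, TCR minus CR was -1.41 and CR minus WTR 1.49, against -1.61 in Nitab4.5_0001464g0020 and 2.07 in Nitab4.5_0001858g0030.

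Nitab4.5_0001464g0020 had the next most negative TCR minus CR (-1.83). It was at 12.54, 16.18 and 16.45 FPKM in TCR, against 50.96, 67.45 and 50.81 FPKM in CR. It was at 35.22, 27.58 and 29.83 FPKM in TWTR, against 20.22, 16.6 and 15.86 FPKM in WTR. Its TCR and WTR libraries overlapped, while TWTR stood above both and CR above all. Nitab4.5_0000245g0060 had the next largest CR minus WTR (2.28), with 18.7 ± 1.59 FPKM in CR and 3.09 ± 0.745 FPKM in WTR (SD, n = 3 each).

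The largest TWTR minus WTR was that of Nitab4.5_0001703g0040, at 2.58. It was 3.89 with a pseudocount of 0.1 and 1.43 with 5, where Nitab4.5_0001858g0030 had 1.52. It was at 10.53, 13.54 and 14.07 FPKM in TWTR, against 1.75, 3.3 and 0 FPKM in WTR. It was at 1.76, 2.8 and 4.5 FPKM in TCR, against 8.23, 7.75 and 4.54 FPKM in CR. The highest TCR library, at 4.5 FPKM, lay just under the lowest CR library, at 4.54 FPKM, and this is the 1 member listed at 0 in a library. Next came Nitab4.5_0003540g0070, with 8.37, 16.56 and 14.89 FPKM in TWTR, against 1.9, 4.18 and 3.3 FPKM in WTR.

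Members differed in how near TCR and TWTR came to each other. On the log2 scale, with WTR set to 0% and CR to 100%, TCR stood at a median of 34.1% and TWTR at 63.6%. From the lower to the upper quartile, members lay between 18.9% and 42.4% for TCR and between 56.9% and 76.1% for TWTR. The bounds in the rule limit both positions. TCR minus TWTR had a median of -0.51 over the members and -0.01 over all models tested. It was smaller in size than CR minus WTR in 73 members. The rule holds TCR minus TWTR under 0.4 and CR minus WTR at 0.6 or more. A larger size was thus possible only with TCR at least 0.6 below TWTR. The choice of members therefore favours a high count, and nothing is read from it.

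**Figure D4:**
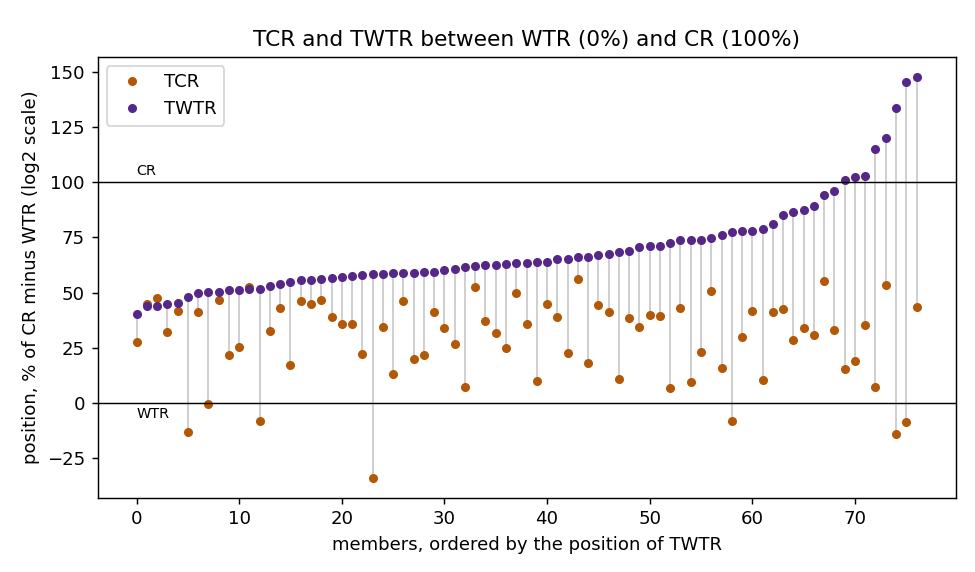
Position of TCR and TWTR for each of the 77 members on the y axis, in percent of the log2 distance from WTR (0%) to CR (100%), with members ordered on the x axis by TWTR. Most pairs lie between the 2 lines with TWTR above TCR, and 8 TWTR points lie above CR and 7 TCR points below WTR.

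The group means ran CR, TWTR, TCR and WTR from highest to lowest in 61 members (79.2%), an order seen in 5.65% of the 15588 models with a mean of 5 to 1000 FPKM. CR had the highest mean in 69 members and TWTR in the other 8. WTR had the lowest mean in 70 and TCR in the other 7. Each of these 4 counts changed by at most 1 under 3 other scalings of the libraries. Rules on the same means chose the members, so the share among other models gives only the setting.

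TCR lay below TWTR with no overlap of libraries in 54 members, as in 17.6% of all models tested, and the libraries overlapped in 23. Limma called 38 members lower in TCR than in TWTR, as it did 6.69% of all models tested, and none higher, against 7.00% of all models tested. At an unadjusted p under 0.05, also 0 members were higher. The rule itself holds TCR minus TWTR under 0.4. TCR lay above WTR with no overlap in 46 members, as in 24.8% of all models tested. CR lay above TWTR with no overlap in 50 (26.9% of all models tested) and below it in 2 (27.8% of all models tested). The rule also bounds TCR minus WTR and CR minus TWTR and asks for CR above WTR, so nothing is read from these counts.

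TCR minus TWTR was highest in Nitab4.5_0000733g0070, at 0.05, and next in Nitab4.5_0004775g0060, at 0.01. Nitab4.5_0000733g0070 was at 9.17, 11.9 and 10 FPKM in TCR, against 18.21, 17.96 and 16.35 FPKM in CR. It was at 11.22, 8.8 and 9.87 FPKM in TWTR, against 6.21, 5.94 and 6.47 FPKM in WTR. Its TCR and TWTR libraries overlapped, CR stood above them and WTR below. Nitab4.5_0001014g0060, singled out after its values were seen, was the only other member with TCR above TWTR in the mean of log2(FPKM + 1) (0.01). In mean FPKM it was at 15.27 in TCR and 15.33 in TWTR. After TPM-like rescaling, TCR was below TWTR in 76 members in place of 74.

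The reverse arrangement, with TWTR above CR, was widest in Nitab4.5_0001703g0040 (CR minus TWTR -0.83) and next in Nitab4.5_0004024g0020 (-0.32). Nitab4.5_0004024g0020 was at 7.77, 8.1 and 6.55 FPKM in TCR, against 13.61, 12.91 and 13.28 FPKM in CR. It was at 13.43, 16.99 and 20.6 FPKM in TWTR, against 8.56, 6.94 and 7.97 FPKM in WTR. Here TCR and WTR overlapped at the low level, and CR and TWTR overlapped at the high level. Nitab4.5_0000236g0010, singled out after its values were seen, was the other member with every CR library below every TWTR library, with 8.27, 9.17 and 6.96 FPKM in CR and 9.87, 10.84 and 9.24 FPKM in TWTR.

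CR stood furthest above TWTR in Nitab4.5_0000368g0130 (CR minus TWTR 0.99) and Nitab4.5_0000411g0010 (0.97). Nitab4.5_0000411g0010 averaged 13.6 ± 1.07 FPKM in TCR and 32.0 ± 2.37 FPKM in CR, and 15.8 ± 1.76 FPKM in TWTR and 9.73 ± 1.36 FPKM in WTR (SD, n = 3 each). TCR stood furthest below WTR in Nitab4.5_0002015g0090, with 4.53, 3.69 and 2.51 FPKM in TCR and 5.92, 4.75 and 4.12 FPKM in WTR (TCR minus WTR -0.39). Those libraries overlapped.

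Low models made up much of the set. The mean was under 10 FPKM in 34 members, from 10 to 50 in 29 and above that in 14, which are 1.14%, 0.351% and 0.322% of all models at those levels. The median member had 11.4 FPKM and the median model with a mean of 5 to 1000 FPKM had 24.7. The lowest means were 5.09 FPKM in Nitab4.5_0002822g0010 and 5.19 FPKM in Nitab4.5_0001714g0060. The spread within groups was wider at low level, with a median pooled SD of 0.208 in members under 10 FPKM, 0.185 from 10 to 50 FPKM and 0.102 above. Over all models at those levels the SD was 0.180, 0.120 and 0.0879, in log2 units. The medians of both differences with T moved little with level, with TWTR minus WTR at 0.95, 0.89 and 0.87 and TCR minus CR at -0.94, -0.85 and -0.92 in the same 3 ranges. The rule asks for at least 0.6 in both at every level, so nothing is read from this. TCR minus TWTR, which the rule holds under 0.4, was smaller in size at higher level, with medians of -0.61, -0.46 and -0.36.

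At the limit of the rule, Nitab4.5_0000733g0070 and Nitab4.5_0000669g0080 entered with a TWTR minus WTR of 0.6001 and 0.601. Nitab4.5_0002996g0010 stayed out with a TWTR minus WTR of 0.599, and Nitab4.5_0000227g0180 with a TCR minus CR of -0.598. Of models that failed a single condition, 82 failed on TWTR minus WTR, 75 on TCR minus CR, 36 on the range of mean FPKM, 33 on CR minus TWTR and 12 on TCR minus WTR.

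Leaving libraries out gives values that did not choose the models read in them, although the rule itself was written with all 12 libraries known. The rule was applied to the 8 libraries that remain without one replicate number, and the 4 libraries left out were then read. Without replicate 1 it chose 83 models, of which 73 (88.0%) showed all 3 directions in the libraries left out, with TWTR above WTR, TCR below CR and CR above WTR. Without replicate 2 it was 74 of 80 models (92.5%), and without replicate 3 it was 87 of 98 (88.8%). Over all models in the same range of mean FPKM the share was 19.96%, 20.14% and 19.55%. Those models were not picked for large differences, so the gap between the shares is a description and no test. The libraries of a group may be technical, so those left out are no independent check.

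In the libraries left out, the chosen models had a median TWTR minus WTR of 0.73, 0.91 and 0.72 and a median TCR minus CR of -0.96, -0.78 and -0.85 for replicates 1, 2 and 3. All 3 differences reached 0.6 in 37 (44.6%), 42 (52.5%) and 43 (43.9%) of the chosen models. Over all models in the same range of mean FPKM, not picked for large differences, the shares were 1.37%, 1.31% and 1.10%. Of the chosen models, 56, 61 and 62 were among the 77. Replicates of one number share only that number, and the 3 readings share libraries, so no p is given.

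**Figure D5:**
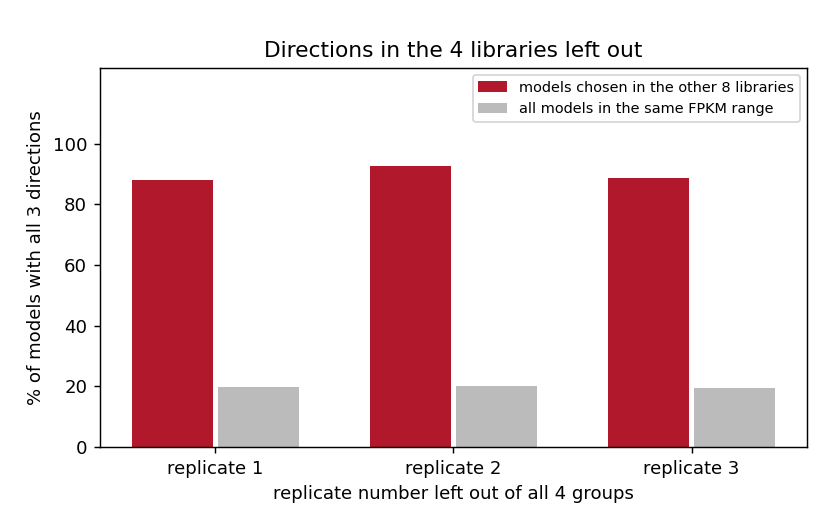
Share of models, in percent, with all 3 directions of the rule in the 4 libraries left out, for each replicate number, for models chosen in the other 8 libraries (red) and all models in the same FPKM range (grey). The red bars stand at 88.0%, 92.5% and 88.8% and the grey bars at 19.96%, 20.14% and 19.55%.

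With every sign turned round, the rule gave 46 models, in which TWTR was below WTR and TCR above CR. The 77 members were thus 62.6% of the models of both patterns. The share was 57.3% after TPM-like rescaling, 55.6% with median-of-ratios scaling and 54.2% with quantile normalization, and with a pseudocount of 5 it was 52.5%. It was 67.5% with a lower limit of 1 FPKM, 66.7% with differences of at least 1.0 and 69.5% without the bounds. The members' own medians moved little under TPM-like rescaling, median-of-ratios scaling and quantile normalization. TWTR minus WTR was 0.82 or more, and TCR minus CR lay between -0.91 and -0.87. Medians with a pseudocount of 5 are not given, and single members moved more with it.

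The members' mean profile, averaged after each member was centred and scaled to unit length over the 12 libraries, correlated with single members at 0.71 to 0.99 (median 0.93). Among non-members tested, Nitab4.5_0000539g0020 (Pearson r 0.98 over 12 libraries) and Nitab4.5_0002724g0070 (0.98) were most like it, and 133 non-members reached at least the members' median. Nitab4.5_0000539g0020 was at 67.43, 65.92 and 58.54 FPKM in TCR, against 101.74, 103.52 and 105.79 FPKM in CR. It was at 78.06, 82.99 and 80.4 FPKM in TWTR, against 56.79, 54.67 and 52.32 FPKM in WTR. It has the order of the members, with all 4 groups apart, and a TWTR minus WTR of 0.55 kept it out of the set. The points share their libraries and the members' choice fixes the profile, so these correlations are descriptions.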

How the data were processed

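Root RNA of 12 libraries was sequenced on a DNBSEQ-T7 instrument, and reads were cleaned with fastp, aligned with STAR, assembled with StringTie2 and compared with known genes by Cuffcompare, per the labels' protocols. Genome build, annotation release, abundance program and versions were not given in the sources used here. The values are the authors' deposited FPKM, 1 column per library, per the file headers. The unit depends on the library total, so very abundant transcripts shift the others, and reads of near-identical copies may be split between them.

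The rule was applied to log2(FPKM + 1) with Python 3.11.15 and pandas 2.3.3. Limma 3.58.1 in R 4.3.3 was fitted to 19929 models whose 12-library mean reached 1 FPKM. The fit had 4 group means, trend and robust options and a Benjamini-Hochberg threshold of 0.05. It was also run on simulated data with normal noise and changes in CR only, from which nothing is read here. FPKM carries no fragment totals, so no counting interval is given. The members and lists were chosen with earlier results of these data known. Named models are the members with the extreme values of each difference and of mean FPKM, those nearest the limit of 0.6, the closest pair of identifiers and the non-members most like the mean profile; exceptions are marked in the text. Alternatives were other pseudocounts, scalings, filters and limits, each library left out, a replicate term and fits of 2 groups alone.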

Additional observations from a re-analysis of the deposited data

Results flagged for a closer look

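The difference between TCR and CR differed from that between TWTR and WTR, by limma's interaction test, in all 77 members. The rule chose models with these differences in opposite directions, so this count had to be high and is no test of the set. The most negative values were -3.95 on the log2 scale in Nitab4.5_0000368g0130 and -3.56 in Nitab4.5_0001703g0040, which was at 0 FPKM in WTR replicate 3. With a pseudocount of 5 they were -2.20 and -1.99, against -2.70 in Nitab4.5_0001858g0030, and with 0.1 they were -4.98 and -5.10. No sample stands out by a test within groups here, because groups of 3 libraries were not tested for outliers.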

How the results depend on the processing

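The number of models meeting the rule fell to 42 with a pseudocount of 5 (36 of them among the 77 members), to 16 when differences of at least 1.0 were asked for, and was 196 with 0.4 and 137 without the bounds on TCR minus WTR and CR minus TWTR. The mirrored pattern counted 8 models with differences of at least 1.0 and 113 with 0.4. Counts of 63 to 110 came from a pseudocount of 0.1, the 3 scalings, a lower limit of 1 FPKM and no upper limit. Leaving out 1 library gave 70 to 88 models, of which 63 to 74 were members. Members called lower in TCR than in TWTR numbered 26 to 41 on leaving out 1 library, and 34 when TCR and TWTR were fitted without the other groups. Over all models, the calls of TCR minus TWTR were 2729, against 1664 without TCR replicate 1, 1660 without TCR replicate 2 and 1803 without TWTR replicate 3; the cause was not tested. Replicate numbers did not pair the libraries: same-numbered libraries had correlated deviations of -0.0888 to 0.0991, none over 0.1, and 7 of 18 correlated best with their own number. With the replicate block, members called were 76 in TWTR minus WTR, 74 in TCR minus CR, 77 in CR minus WTR, 37 in TCR minus TWTR and 77 in the interaction. No called difference of the 22 named models changed sign in the alternatives run for them. Of the 110 differences of these models, 53 moved by more than 1 SD with a pseudocount of 5, 19 with 0.1 and 5 with quantile normalization. These 77 are all that moved among 1980 values over all settings. That total says little: the replicate block cannot move a value in this balanced design, and leaving out 1 library can hardly move one by 1 SD. The mirrored pattern and the group orders under other scalings were added after seeing the data. Unknown depth limits the members under 10 FPKM most.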

Other observations

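The members were spread over 76 scaffold parts of the identifiers, out of 3170 in the table. A single pair shared one, with adjacent gene numbers: Nitab4.5_0000008g0860 and Nitab4.5_0000008g0870, whose log2 levels correlated at 0.90 over the 12 libraries. Nitab4.5_0000008g0860 was at 51.45, 56.96 and 43.18 FPKM in TCR, against 107.19, 87.08 and 93.35 FPKM in CR, and at 66.92, 56.21 and 48.28 FPKM in TWTR, against 30.5, 39.02 and 42.39 FPKM in WTR. Nitab4.5_0000008g0870 was at 72.78, 62.02 and 86.64 FPKM in TCR, against 134.12, 132.2 and 140.82 FPKM in CR, and at 90.5, 68.28 and 83.38 FPKM in TWTR, against 37.94, 59.6 and 46.68 FPKM in WTR. In both, TCR and TWTR overlapped, CR stood above and WTR below. Whether these models are copies of one gene was not tested.

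Models next to members in the identifier order had medians near those of all models. Over 84 tested non-members whose gene number is 10 away from a member, the median was 0.04 for TWTR minus WTR, -0.03 for TCR minus CR and 0.07 for CR minus WTR, against 0.04, -0.01 and 0.04 over all models tested. All 3 differences had the members' direction in 18 of the 84 (21.4%), against 20.8% of all models tested.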
